A study of Homo sapiens with 95 samples.

Results

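The comparison described here set BaP against NNK, 2 carcinogens of tobacco smoke, in AALE cells, an immortalized human bronchial epithelial cell line. It took every library of cells exposed to 173 μM BaP (24 libraries) or 490 μM NNK (24 libraries), 48 of the 95 libraries of the series, and compared the chemicals within each of 8 genotypes. BaP (benzo[a]pyrene) is a polycyclic aromatic hydrocarbon, and NNK is a nitrosamine derived from nicotine. The series profiled the transcriptome of these cells with sparse full-length (SFL) RNA-seq, a shallow, pooled protocol on ribosomal RNA-depleted RNA, to assess that protocol and compare it with other expression platforms. The other libraries came from cells given DMSO, the solvent control (24), or 24 μg/ml cigarette smoke condensate, CSC (23), and entered no test here. Their levels are given beside those of BaP and NNK as a background.

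Each genotype was 1 derived line with 3 replicates per chemical. The FAT1 and CDKN2A lines carried CRISPR-Cas9 knockouts of those genes, and the GFP line received the PX458 plasmid without a guide as their control. The NRF2 (gene symbol NFE2L2), FGFR1, NRG1 and PIK3CA lines overexpressed the named gene, and the HCRED line carried the HcRed vector as their control. All lines descend from the same immortalized cells, so no group is a primary airway culture. The cells were confluent when the compounds were added, and the length of exposure is not given in the sources used here. The molar doses of BaP and NNK differ, so the comparison is between these exposures and not between equal amounts. The study describes the 3 replicates as biological. The labels do not say whether they were separate cultures, and the p-values measure the spread between these samples.

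BaP enters the cell and binds the aryl hydrocarbon receptor (AhR), a transcription factor that moves to the nucleus, pairs with ARNT and switches on CYP1A1 and CYP1B1, monooxygenases that oxidize BaP itself into DNA-reactive metabolites. NNK is activated by other cytochrome P450 enzymes and reduced by carbonyl reductases, and is not a classical AhR ligand. NRF2 is the transcription factor of the antioxidant response, and SREBP2 that of cholesterol synthesis.

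Counted reads per library ranged from 287446 to 1641130, with a mean of 870730 for BaP and 853732 for NNK (two-sided permutation test within genotype, p = 0.876). Of the libraries under 500000 reads, 5 were BaP and 3 were NNK, and 3 reads stood for 1.83 to 10.4 CPM, counts scaled to the size of each library. The perturbed genes followed the labels: FGFR1 was 1127 to 1371 CPM in its line and at most 81.4 CPM in the other 42 libraries, and FAT1 was 70.8 to 109 CPM in the knockout line and at least 262 CPM elsewhere. Basal epithelial markers were abundant, with a summed level of 7660 to 13035 CPM in BaP and 8398 to 17757 CPM in NNK libraries. Summed markers of ciliated and secretory, fibroblast, and endothelial and blood cells stayed at or below 18.4, 76.0 and 13.2 CPM. Mitochondrial ribosomal RNA took 0.551% ± 0.0652 of reads with BaP and 0.673% ± 0.137 with NNK (SD, n = 24 each, permutation p = 2.0e-05 from 100000 permutations, adjusted p = 6.0e-05 over 6 library measures).

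Of 14231 genes tested with limma-voom, 1308 (9.19%) passed an adjusted p of 0.05 for BaP against NNK. BaP libraries were higher for 551 genes (3.87%), among them 8 of 14 AhR targets and 16 of 20 NRF2 targets, and NNK libraries were higher for 757 (5.32%), among them all 18 tested genes of cholesterol synthesis and 8 of 10 basal epithelial markers. Most differences were small: the median log2 fold change, BaP minus NNK, was 0.34 among genes higher with BaP, -0.24 among genes higher with NNK and -0.0010 over all genes tested. Only 28 genes higher with BaP and 3 higher with NNK differed by more than 1 on the log2 scale. The sign was the same in all 8 genotypes for 694 tested genes (4.88%), of which 531 were called.

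**Figure D1:**
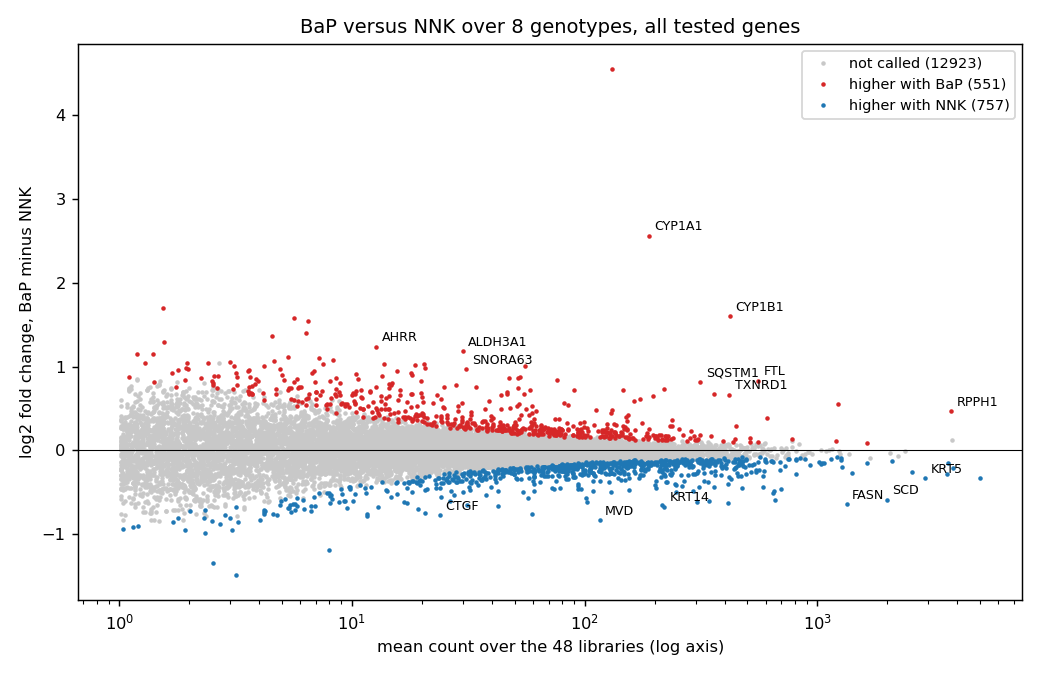
Log2 fold change, BaP minus NNK, of every tested gene (y axis) against its mean count over the 48 libraries (log x axis), with 551 genes higher with BaP in red and 757 higher with NNK in blue. CYP1A1 and CYP1B1 stand highest among genes with the same sign in every line, at 2.56 and 1.60.

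In all 8 genotypes at once, the 3 BaP libraries lay above the 3 NNK libraries for 9 genes (0.0632% of genes tested). These 9, named after their values were seen, were CYP1A1, CYP1B1, TIPARP, ALDH1A3, NQO1, FTL, SQSTM1, SRXN1 and TXNRD1. Known targets of AhR or of NRF2 make up this group. The reverse held for 20 genes (0.141%). MVD, LSS, FDFT1, SQLE and CYP51A1 of that group make cholesterol, and FASN, SCD, ACLY and FADS2 make or desaturate fatty acids. The group also held KRT14, CDH1, FN1, CD24, FAT1, APP, NAV2, PEG10 and UGGT1.

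ULK4, a serine/threonine kinase gene singled out after its values were seen, had counts whose order among the chemicals depended on the line. In the CDKN2A, FAT1, NRF2 and NRG1 lines they were 16 to 1310 (median 31) with BaP, 4 to 54 (median 14) with NNK and 13 to 168 (median 18.5) with DMSO. In the FGFR1, GFP, HCRED and PIK3CA lines they were 4 to 261 (median 18) with BaP, 7 to 166 (median 14) with NNK and 29 to 1047 (median 50) with DMSO. Its mean level with BaP was above that with DMSO in each line of the first set and below it in each line of the second, and the cause was not tested. Results are also given for each set of 4 lines fitted alone, a split the labels do not name.

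CYP1A1 and CYP1B1, the markers of AhR activity, were higher with BaP in every line. CYP1A1 (chromosome 15, 75011883 to 75017877, hg19) measured 103 to 868 CPM (median 372) in the 24 BaP libraries, 32.2 to 114 CPM (median 52.7) in the 24 NNK libraries, and a median of 7.44 CPM with DMSO and 393 CPM with CSC. BaP libraries of the PIK3CA line reached down into the range of the NNK libraries of the CDKN2A line, and within each line the groups did not overlap. The difference was 2.56 on the log2 scale (SE 0.097), a 5.92-fold higher level (limma-voom adjusted p = 4.32e-39). In the 2 sets of lines it was 2.72 (SE 0.12) and 2.31 (SE 0.10).

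CYP1B1 (chromosome 2, 38294116 to 38337044, hg19) measured 313 to 1054 CPM (median 707) with BaP and 121 to 444 CPM (median 184) with NNK. Its median was 67.3 CPM with DMSO and 815 CPM with CSC. BaP libraries were again the higher ones within each line, and some BaP libraries of the PIK3CA line fell below NNK libraries of the CDKN2A line. The difference was 1.60 (SE 0.062), or 3.04-fold (limma-voom adjusted p = 1.85e-38), with 1.57 and 1.64 in the 2 sets of lines.

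NNK libraries did not sit at the DMSO level. Taken from 1 fit of all 95 libraries and given as a description, CYP1A1 was 5.63 (SE 0.25) above DMSO with BaP and 3.06 (SE 0.27) above DMSO with NNK on the log2 scale, and CYP1B1 was 3.24 and 1.62 above it. In the HCRED line CYP1A1 rested on at most 2 reads per DMSO library, while its NNK mean was 39.1 CPM.

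**Figure D2:**
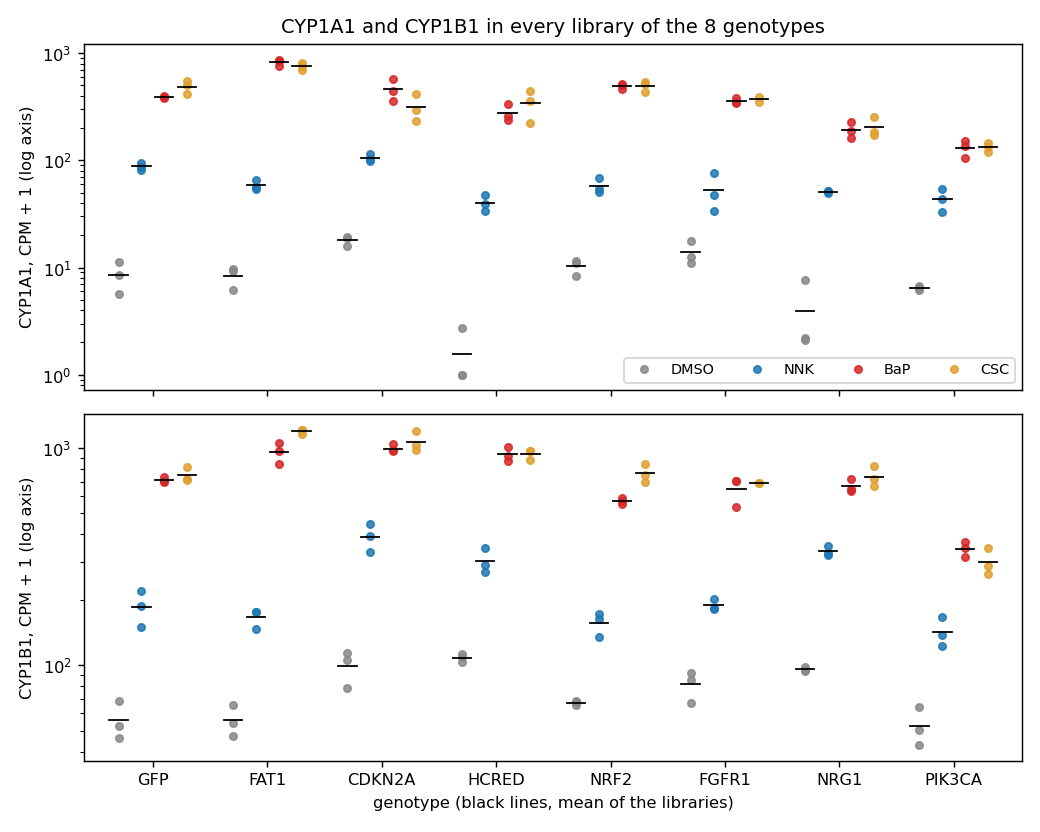
CYP1A1 (top) and CYP1B1 (bottom) as CPM + 1 on log axes in every library, by genotype, with DMSO in grey, NNK in blue, BaP in red and CSC in yellow and black lines for means. In each line DMSO lies lowest, NNK between, and BaP above NNK, with the narrowest gap for CYP1A1 in the PIK3CA line and for CYP1B1 in the NRG1 line.

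Capitals mark letters that match GCGTG, the core of the AhR response element, in the 250 bases before the start of CYP1A1, AHRR and TIPARP. These are AhR targets whose response is described here, and the antioxidant motif TGACNNNGC is marked in TXNRD1 for comparison. Sequences are from RefSeq on GRCh38.p14, 5′ to 3′ on the gene's strand: CYP1A1 at chr15:74725529-74725778 (minus strand), AHRR at chr5:321464-321713 (plus), TIPARP at chr3:156674340-156674589 (plus) and TXNRD1 at chr12:104215529-104215778 (plus). For AHRR the capitals mark the longer TNGCGTG, which contains the core, and for TIPARP they mark CACGC, the core read on the other strand. No stretch searched for CYP1A1 or TIPARP held TNGCGTG, and binding of AhR to the marked letters was not tested.
CYP1A1: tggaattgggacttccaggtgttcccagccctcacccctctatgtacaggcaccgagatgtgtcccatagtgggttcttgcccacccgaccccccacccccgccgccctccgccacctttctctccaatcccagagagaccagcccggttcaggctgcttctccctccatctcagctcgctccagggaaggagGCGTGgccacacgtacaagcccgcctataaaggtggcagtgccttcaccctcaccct
AHRR: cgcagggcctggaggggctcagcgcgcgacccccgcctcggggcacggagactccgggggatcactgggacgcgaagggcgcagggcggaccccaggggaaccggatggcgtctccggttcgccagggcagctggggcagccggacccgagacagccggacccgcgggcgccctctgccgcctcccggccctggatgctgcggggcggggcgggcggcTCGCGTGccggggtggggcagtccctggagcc
TIPARP: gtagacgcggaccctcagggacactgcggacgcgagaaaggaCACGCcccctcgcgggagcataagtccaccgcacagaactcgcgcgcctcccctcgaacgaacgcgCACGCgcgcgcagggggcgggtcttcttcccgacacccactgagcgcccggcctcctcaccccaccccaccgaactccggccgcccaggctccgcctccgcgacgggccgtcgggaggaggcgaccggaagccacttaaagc
TXNRD1: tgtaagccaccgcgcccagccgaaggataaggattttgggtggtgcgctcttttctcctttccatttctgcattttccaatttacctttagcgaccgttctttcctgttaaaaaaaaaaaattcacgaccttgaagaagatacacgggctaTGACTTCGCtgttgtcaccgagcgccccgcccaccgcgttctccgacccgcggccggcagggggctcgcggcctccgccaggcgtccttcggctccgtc

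Motifs were counted on both strands in 300-base windows, from 250 bases before to 50 after a start, for the genes that had one. At least 1 window held GCGTG in 8 of 12 AhR targets (66.7%), in 58.5% of 335 genes higher with BaP and in 57.6% of 10612 tested genes. TNGCGTG was found in 3 of the 12 targets, in 11.9% of genes higher with BaP, in 8.74% of genes higher with NNK and in 9.28% of tested genes. TGACNNNGC was found in 30.1% of genes higher with BaP, in 19.3% of genes higher with NNK, in 19.4% of tested genes and in 6 of 13 NRF2 targets (46.2%). These are counts of letters, without a test. All 12 cholesterol genes with a window held GCGTG, as did 69.2% of the 13 NRF2 targets, and 4 of the 12 cholesterol genes (33.3%) and none of the NRF2 targets held TNGCGTG.

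Of 15 listed AhR targets, 14 were tested, 8 were higher with BaP, none was higher with NNK and 6 did not pass the test, with a median log2 fold change of 0.59. Beside the CYP1 genes, these were AHRR, TIPARP, ALDH3A1, ALDH1A3, NQO1 and UGT1A6. AHRR, a repressor of AhR, measured 3.0 to 41.7 CPM (median 22.1) with BaP and 1.41 to 17.5 CPM (median 7.71) with NNK, a log2 fold change of 1.24 (SE 0.16) that rested on low counts. BaP was higher in 7 of 8 lines. The exception was the PIK3CA line, at -0.07.

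TIPARP, a mono-ADP-ribosyltransferase that also restrains AhR, measured 262 to 387 CPM (median 308) with BaP against 101 to 255 CPM (median 186) with NNK, so that no library of one chemical overlapped the other. Its log2 fold change was 0.74 (SE 0.051, limma-voom adjusted p = 8.06e-22). ALDH3A1, an aldehyde dehydrogenase, measured 2.0 to 160 CPM (median 42.7) with BaP and 0 to 54.3 CPM (median 16.4) with NNK, with wide overlap over all lines and none within 5 of the 8. BaP was higher in 8 of 8 lines, by 1.18 (SE 0.11). ALDH1A3, which makes retinoic acid, was higher by 0.59 (SE 0.050), as was the quinone reductase NQO1 by 0.65 (SE 0.044). UGT1A6, of the UGT1A cluster whose isoforms share exons, was higher by 0.59 (SE 0.18), but its reads cannot be told from those of its neighbours, and it did not pass the test with DESeq2.

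The remaining AhR targets differed less. SLC7A5, an amino acid transporter, stood at a median of 2464 CPM with BaP and 2425 CPM with NNK (log2 fold change -0.03, SE 0.031). EREG, an EGF receptor ligand, gave 0.17 (SE 0.063, limma-voom adjusted p = 0.0736), and IL1B gave 0.48 (SE 0.19, limma-voom adjusted p = 0.0957). None of the 7 genes of the AhR complex passed the test. AHR itself had a median of 184 CPM with BaP and 183 CPM with NNK, with a log2 fold change of -0.01 (SE 0.045), and ARNT was at -0.01 (SE 0.062).

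Genes of the NRF2 response were mostly higher with BaP. Of 20 tested members, 16 were higher with BaP, 1 (PGD) was higher with NNK and 3 were not called, and their median was 0.39. In the first set of lines 14 were higher with BaP and none with NNK, and in the second 12 and 1. Of all genes, 435 of 14150 and 200 of 13923 were higher with BaP in the 2 sets. Ferritin light chain, FTL, which stores iron, measured 436 to 1891 CPM (median 699) with BaP and 224 to 957 CPM (median 408) with NNK. BaP libraries were the higher ones in all lines, while the ranges over all lines overlapped. The log2 fold change was 0.83 (SE 0.034, limma-voom adjusted p = 6.91e-37). Ferritin genes have processed copies elsewhere in the genome, so their counts carry that uncertainty.

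TXNRD1, thioredoxin reductase, measured 461 to 756 CPM (median 600) with BaP and 249 to 474 CPM (median 367) with NNK, with BaP libraries of the FAT1 line the lowest of their group. It differed by 0.67 (SE 0.036, limma-voom adjusted p = 1.45e-28), with 0.66 and 0.67 in the 2 sets of lines. SRXN1, which repairs oxidized peroxiredoxins, differed by 0.72 (SE 0.048). GCLC and GCLM, the subunits of the enzyme that starts glutathione synthesis, differed by 0.62 (SE 0.051) and 0.49 (SE 0.062). SQSTM1 (p62), an autophagy receptor that stabilizes NRF2 and is no member of the list, measured 284 to 830 CPM (median 452) with BaP and 181 to 399 CPM (median 253) with NNK. It differed by 0.82 (SE 0.036, limma-voom adjusted p = 1.57e-34). OSGIN1 had the largest difference of the list, 1.54 (SE 0.21), at medians of 8.97 and 3.04 CPM, close to the level of 3 reads.

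Against DMSO, all 20 NRF2 members lay higher with BaP (median 0.57 log2), and 16 of 20 lay higher with NNK (median 0.19). TXNRD1 was 0.72 above DMSO with BaP and 0.05 with NNK. FTL was 1.41 above it with BaP and 0.58 with NNK. NFE2L2 itself differed by 0.11 (SE 0.038, limma-voom adjusted p = 0.0577), a difference that passed the test with edgeR and with DESeq2, at 0.15 in both. It was 0.0043 (SE 0.045) in the first set of lines and 0.31 (SE 0.059, limma-voom adjusted p = 0.000121) in the second.

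**Figure D3:**
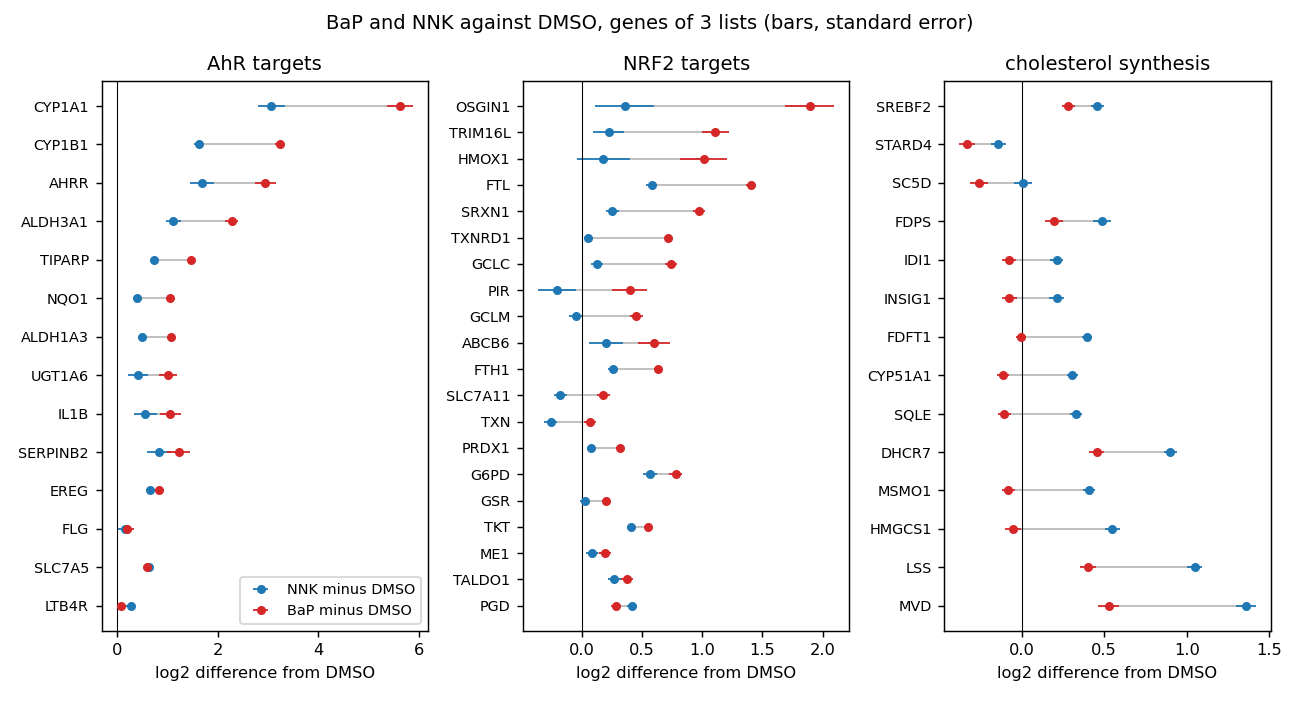
Log2 difference from DMSO (x axis, with standard errors, from a fit of all 95 libraries) for BaP (red) and NNK (blue), one row per gene of the AhR and NRF2 lists and for 14 genes of the cholesterol list. NNK lies between DMSO and BaP for 12 of 14 AhR targets and 15 of 20 NRF2 targets, while all cholesterol genes shown lie lower with BaP than with NNK.

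Cholesterol synthesis ran the other way. All 18 tested members were higher with NNK, with a median log2 fold change of -0.44, and 17 and 14 of them were called in the first and second sets of lines. MVD, mevalonate diphosphate decarboxylase, measured 41.4 to 175 CPM (median 91.1) with BaP and 83.1 to 245 CPM (median 182) with NNK. The groups overlapped only between lines. It had the largest difference of the list, -0.84 (SE 0.055, limma-voom adjusted p = 5.51e-23).

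The early enzyme HMGCS1 differed by -0.61 (SE 0.047) and the cyclase LSS by -0.65 (SE 0.048). INSIG1, which retains SREBP in the endoplasmic reticulum, gave -0.29 (SE 0.052). SREBF2, which encodes SREBP2, gave -0.17 (SE 0.039). Smaller values than those of HMGCS1 and LSS were not limited to such regulators. In the first and second sets of lines the enzyme IDI1 gave -0.41 (SE 0.067) and -0.18 (SE 0.049), and the enzyme FDPS -0.34 (SE 0.079) and -0.23 (SE 0.080).

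The position of DMSO split the list. With NNK, 17 of 18 members lay above DMSO (median 0.43), the exception being STARD4, at -0.14. With BaP, 11 of 18 lay below DMSO (median -0.05). CYP51A1, the lanosterol demethylase, stood at -0.11 relative to DMSO with BaP and at 0.31 with NNK. MVD, LSS, DHCR7, FDPS and SREBF2 were among those above DMSO with both chemicals, MVD by 0.53 with BaP and 1.36 with NNK.

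FASN, SCD, ACLY and FADS2, the last 2 named after their values were seen, act in fatty acid synthesis and were also higher with NNK. FASN, fatty acid synthase, measured 782 to 2184 CPM (median 1141) with BaP and 1255 to 2509 CPM (median 1965) with NNK, a log2 fold change of -0.64 (SE 0.045). SCD, the desaturase that makes oleate, measured 1128 to 2644 CPM (median 1875) with BaP and 1910 to 3309 CPM (median 2825) with NNK, a log2 fold change of -0.59 (SE 0.026, limma-voom adjusted p = 1.46e-34). NNK libraries were the higher ones in every line for both genes. ACLY, which supplies acetyl-CoA, differed by -0.46 (SE 0.031) and the desaturase FADS2 by -0.61 (SE 0.045).

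Basal epithelial markers were also higher with NNK: 8 of 10 were called in that direction, TP63 and EPCAM were not, and the median was -0.22. KRT14, a basal keratin, measured 23.0 to 385 CPM (median 190) with BaP and 32.98 to 756 CPM (median 273) with NNK, with the lowest values in the FAT1 line. Its log2 fold change was -0.68 (SE 0.055, limma-voom adjusted p = 4.54e-18). KRT5, its partner, differed by -0.33 (SE 0.025), E-cadherin (CDH1) by -0.32 (SE 0.028) and desmoplakin (DSP) by -0.26 (SE 0.027). Relative to DMSO, KRT14 stood at -0.74 with BaP and at -0.07 with NNK.

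Other genes were among the 12 largest falls with 1 sign in all lines. DKK1, a WNT inhibitor, measured 7.65 to 78.1 CPM (median 57.9) with BaP and 14.2 to 129 CPM (median 90.5) with NNK, near its DMSO median of 92.1 CPM. It differed by -0.76 (SE 0.071, limma-voom adjusted p = 9.00e-15). CTGF, a target of YAP and of TGF-β, had medians of 15.0 CPM with BaP, 28.1 CPM with NNK and 10.7 CPM with DMSO, so that NNK stood farther from DMSO. It differed by -0.78 (SE 0.12). SGK1, a kinase induced by stress and steroids, showed the same order, with medians of 38.0, 62.2 and 37.02 CPM and a difference of -0.67 (SE 0.070). FBN2, MATN2, TENM4, CNTNAP2 and PHACTR3 made up the rest, between -0.63 and -0.78.

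**Figure D4:**
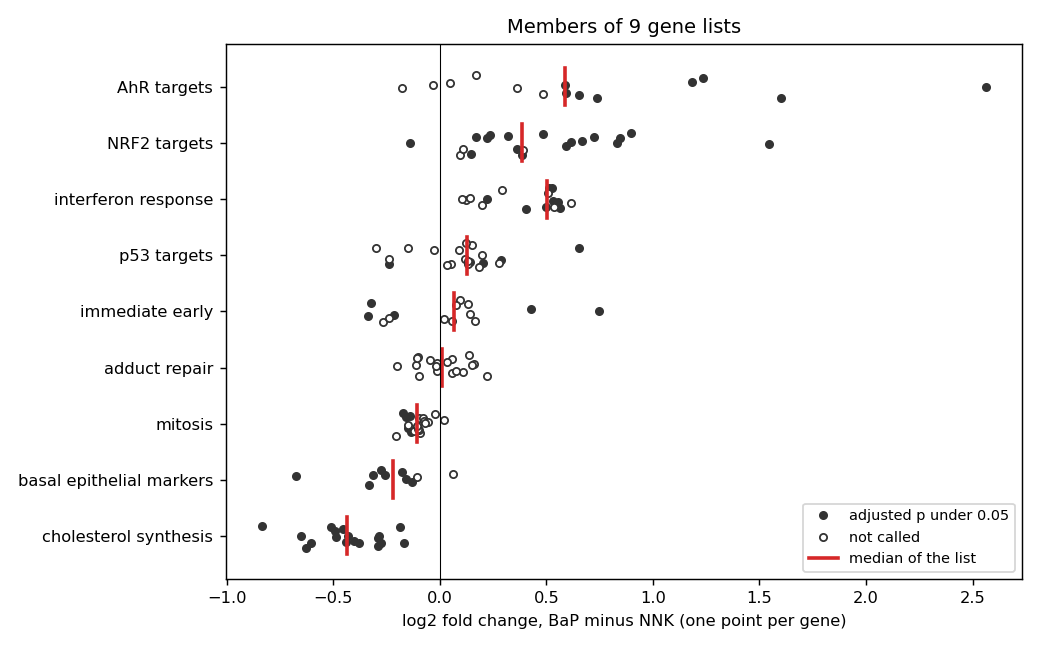
Log2 fold change, BaP minus NNK, of each tested member of 9 gene lists, with filled points for adjusted p under 0.05, open points for genes not called and red bars for list medians. Medians run from 0.59 for AhR targets to -0.44 for cholesterol synthesis, where all 18 points are filled and lie below 0.

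Interferon response genes were higher with BaP in 8 of 16 tested and with NNK in none, with a median of 0.50. Over all tested genes, 3.87% were higher with BaP and 5.32% with NNK. All 16 had a positive log2 fold change, but levels were low. DDX58, the RNA sensor RIG-I, measured 19.1 to 106 CPM (median 44.6) with BaP, 13.9 to 70.3 CPM (median 32.9) with NNK and a median of 43.8 CPM with DMSO, a difference of 0.50 (SE 0.081, limma-voom adjusted p = 2.35e-06). IFIT3 and IFI44 differed by 0.51 (SE 0.10) and 0.53 (SE 0.11). Relative to DMSO, the median of the 16 genes was 0.26 with BaP, with 13 above DMSO. With NNK it was -0.09, with 7 above DMSO and 9 below. DDX58 stood apart from these medians, at 0.05 with BaP and at -0.45 with NNK, and IFIT2 stood at 0.31 and -0.09.

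Counts in other stress and growth lists stand beside 3.87% of all tested genes higher with BaP and 5.32% higher with NNK. Of 20 p53 targets, 4 were higher with BaP and 1 with NNK (median 0.13). CDKN1A (p21) measured 183 to 543 CPM (median 267) with BaP and 117 to 448 CPM (median 229) with NNK, a difference of 0.29 (SE 0.046). In the 2 sets of lines it was 0.38 (SE 0.057) and 0.16 (SE 0.063, limma-voom adjusted p = 0.154). None of 18 genes of DNA adduct repair passed the test (median 0.01). Of 20 mitosis genes, 5 were higher with NNK and none with BaP (median -0.11), and 2 of 20 replication genes were higher with NNK (median -0.05). TPX2, a spindle assembly factor, had the smallest p of the mitosis list, at -0.15 (SE 0.033).

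Immediate early genes split. EGR1 and FOS were higher with NNK, by -0.34 (SE 0.038) and -0.33 (SE 0.075), as was DUSP1, while JUN and FOSB were higher with BaP. JUN gave 0.43 (SE 0.077) over all lines, but 0.75 (SE 0.093) in the first set and 0.05 (SE 0.098) in the second. EGR1 gave -0.34 and -0.35. Both EGR1 and FOS stood far above DMSO with either chemical, EGR1 by 1.99 with BaP and 2.34 with NNK. IL1A, an alarmin, measured 24.9 to 118 CPM (median 63.0) with BaP, 16.1 to 79.5 CPM (median 40.5) with NNK and a median of 20.7 CPM with DMSO, and differed by 0.50 (SE 0.076, limma-voom adjusted p = 2.35e-07).

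Calls in the remaining lists, given as higher with BaP and higher with NNK, were 2 and 2 of 17 for hydrocarbon metabolism, 3 and 1 of 16 for the ATF4 response, 1 and 3 of 15 for the unfolded protein response, 4 and 3 of 14 for hypoxia and glycolysis, 2 and 0 of 11 for inflammatory signals and 0 and 1 of 9 for heat shock. The lists of metallothioneins, squamous differentiation and nicotinic and adrenergic receptors had none among 4, 6 and 5 tested, and the ciliated and secretory, fibroblast, and endothelial and blood lists had none among 3, 3 and 2. Of 8 tested genes of NNK metabolism, AKR1C1, AKR1C2 and AKR1C3 were higher with BaP. These are near-identical copies, so the split of reads among them is uncertain. Ribosomal protein genes were higher with BaP in 10 and with NNK in 5 of 76. Over all tested genes, the shares were 3.87% higher with BaP and 5.32% higher with NNK. The counts of these lists were not tested against those shares.

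Small structured RNAs made up a further group higher with BaP. Of 4 tested nuclear and structured RNAs on a separate list, RPPH1, RMRP and MALAT1 were higher with BaP (median 0.38). Relative to DMSO, MALAT1 was lower with both chemicals, at -0.37 with BaP and -0.66 with NNK. RPPH1 stood at 0.89 and 0.44 and RMRP at 0.72 and 0.17. Among 214 tested small nucleolar and Cajal body RNAs, a group chosen after the values were seen, 89 were higher with BaP and none with NNK, with a median of 0.56. In the first set of lines 91 of 212 were called (median 0.81) and in the second 12 of 199 (median 0.22), beside 435 of 14150 and 200 of 13923 of all genes higher with BaP. The difference between the sets was not tested. In the PIK3CA line the median was -0.29. Their summed level was 2099 to 5492 CPM (median 3335) with BaP, 1563 to 3039 CPM (median 2165) with NNK and a median of 2522 CPM with DMSO. RPPH1 and RMRP, the RNA subunits of RNase P and RNase MRP, differed by 0.83 (SE 0.067) and 0.83 (SE 0.083) in the first set and by 0.10 (SE 0.046) and 0.21 (SE 0.074) in the second. SNORA53 and SNORA63, which guide pseudouridylation, were called in both sets, SNORA63 by 1.21 (SE 0.16) and 0.63 (SE 0.17). Many of these RNAs lie inside introns of host genes, and their part in other results was not tested. Without structured RNA genes, 496 genes were higher with BaP and 697 with NNK.

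Genes higher with NNK were long and had many reads. The median of their mean counts was 107, against 42.4 for genes higher with BaP and 26.25 for all tested genes. Of those with an annotation, 97.7%, 85.7% and 93.2% were protein coding. The part of read depth and gene type in the difference of length was not tested. The median annotated exon length of genes higher with NNK was 7896 bases, against 4908 for genes higher with BaP and 5324.5 for all tested genes. An annotation was found for 98.0%, 82.8% and 93.1% of these genes. The mean exon length over reads was 8566 ± 108 bases with BaP and 8675 ± 114 with NNK (SD, n = 24 each, permutation p = 2.0e-05), lower with BaP in all 8 lines. With GC content and length trends removed from each library, over the 13234 genes this fit tested, 532 genes were higher with BaP and 748 with NNK, and 399 and 613 of these were calls of the uncorrected fit.

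The size of the difference depended on genotype for 171 genes (1.2% of 14231, limma-voom F test of 7 chemical by genotype terms, adjusted p under 0.05). With edgeR the count was 147 and with DESeq2 70. It rose to 457 without NRG1-BaP replicate 1 and to 271 without CDKN2A-NNK replicate 1, and fell to 54 without the CDKN2A line. CYP1B1 (limma-voom adjusted p = 2.36e-15) and CYP1A1 (limma-voom adjusted p = 1.60e-13) headed the list with AHNAK, SCD and RPPH1.

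For CYP1A1 the FAT1 line gave 822 ± 60.8 CPM with BaP and 57.8 ± 5.88 CPM with NNK (SD, n = 3), a 13.99-fold difference. The NRF2 line followed with 495 ± 28.4 and 56.6 ± 9.41 CPM, an 8.40-fold difference. The GFP control gave 388 ± 4.82 and 86.7 ± 7.07 CPM, or 4.39-fold, and the HCRED control 279 ± 51.5 and 39.1 ± 6.76 CPM, or 6.76-fold. The smallest response was that of the PIK3CA line, with 130 ± 23.9 and 42.5 ± 10.4 CPM, or 3.10-fold, next to the NRG1 line, with 192 ± 34.3 and 50.1 ± 1.06 CPM, or 3.54-fold. Mean levels over the 8 lines spanned 130 to 822 CPM with BaP and 39.1 to 105 CPM with NNK. On the log2 scale the FAT1 line stood at 3.81 (SE 0.17), and the NRG1 (1.82, SE 0.18) and PIK3CA (1.63, SE 0.19) lines stood lowest, with a gap close to the size of either SE.

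CYP1B1, TIPARP and ALDH1A3 kept the ends of this order. The FAT1 line was highest for each, with log2 fold changes of 2.57 (SE 0.12), 1.19 (SE 0.13) and 1.31 (SE 0.16). The NRG1 and PIK3CA lines were lowest for each, with 0.95 (SE 0.089) and 1.21 (SE 0.12) for CYP1B1, 0.43 and 0.35 for TIPARP, and 0.29 and 0.38 for ALDH1A3. The 8-line interaction of TIPARP had a limma-voom adjusted p of 0.000143, and that of ALDH1A3 0.000546, which became 0.0798 without the FAT1 line.

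**Figure D5:**
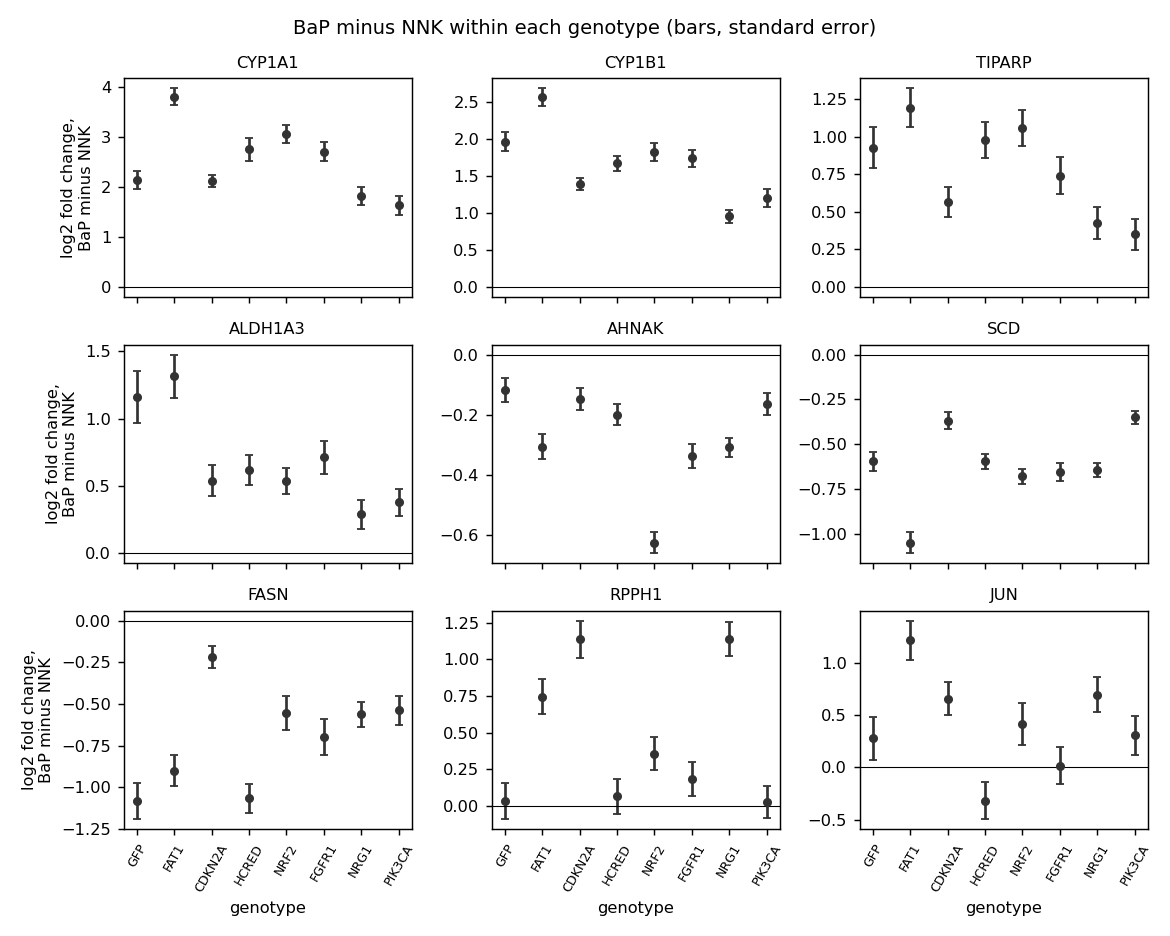
Log2 fold change, BaP minus NNK, within each genotype (x axis) with standard errors for 9 genes whose interaction with genotype passed the test. The FAT1 line is the extreme for CYP1A1 (3.81), CYP1B1 (2.57), TIPARP (1.19), ALDH1A3 (1.31), SCD (-1.05) and JUN (1.22), the NRF2 line for AHNAK (-0.63), and RPPH1 is near 0 in the GFP, HCRED and PIK3CA lines.

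Genes higher with NNK differed by line too. The median of the cholesterol list ran from -0.87 in the FAT1 line to -0.28 in the GFP line. SCD fell farthest with BaP relative to NNK in the FAT1 line, with 1152 ± 36.3 CPM against 2344 ± 57.0 CPM (SD, n = 3), a log2 fold change of -1.05 (SE 0.058), and least in the PIK3CA line, at -0.35 (SE 0.036). FASN was different, with -1.08 (SE 0.11) and -1.07 (SE 0.088) in the GFP and HCRED control lines and -0.22 (SE 0.066) in the CDKN2A line. AHNAK, a large scaffold protein, gave -0.63 (SE 0.035) in the NRF2 line and between -0.12 and -0.34 in the other 7. FAT1, a protocadherin, was lower with BaP in all 8 lines, from -0.70 (SE 0.067) in the NRF2 line to -0.24 (SE 0.063) in the PIK3CA line, and in the knockout line itself at -0.38 (SE 0.16). SLC7A5 changed sign, from 0.27 (SE 0.061) in the CDKN2A line to -0.27 (SE 0.068) in the HCRED line.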

How the data were processed

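RNA was profiled by SFL sequencing in 48 BaP or NNK libraries. The deposited values are raw counts per gene, 1 table per sample. The authors trimmed reads with cutadapt 1.12, checked them with FastQC 0.11.5, aligned single-end reads to hg19 with STAR 2.5.2b and counted them in RefSeq genes with featureCounts. The strand setting and the handling of reads with several matches are not given in the sources used here, so overlapping or antisense genes and near-identical copies cannot be told apart.

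Genes with a mean count above 1 over the 48 libraries were tested with limma-voom (limma 3.58.1, edgeR 4.0.16, R 4.3.3), TMM normalization, the 8 genotypes as covariate and Benjamini-Hochberg adjustment over all genes at 0.05. Genes past it are said to be called. The interaction with genotype was a moderated F test. Differences from DMSO came from a fit of all 95 libraries and are a description. CPM are counts scaled to the total of counted reads of a library. Shares and lengths per library were compared by two-sided permutation within genotype. Alternatives were edgeR, DESeq2 1.42.0, DESeq2 size factors, other count filters, all 95 libraries, a replicate block, GC content and exon length correction, sample weights, a depth limit, and leaving out each library or genotype. Leaving out structured RNAs, the interaction without each genotype and the fits of 4 lines each were chosen after seeing the data, the last split on a gene that is not reported here. The fits were tested on simulated data. Depth limits low genes: 3 reads stood for up to 10.4 CPM, and such limits cover counting error only.

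The gene lists and members were chosen with earlier results of these data known. Genes were named by rule: CYP1A1 and CYP1B1; the 12 largest rises and 12 largest falls among called genes whose sign was shared by all 8 genotypes and whose counts averaged 10 or more; up to 4 called members of each list by smallest p with the same count minimum, and all tested AhR genes; 5 interaction genes of smallest p; and the perturbed genes. Motifs were chosen with the results known, and gene positions matched for 85.7% of the 27978 listed genes.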

Additional observations from a re-analysis of the deposited data

Results flagged for a closer look

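For 18 named genes the difference between BaP and NNK varied among the 8 genotypes by the interaction test (limma-voom, Benjamini-Hochberg adjusted). The adjusted p was 2.36e-15 for CYP1B1, 1.60e-13 for CYP1A1 and 1.60e-13 for AHNAK. It was 2.63e-11 for SCD, 8.32e-10 for RPPH1 and 4.25e-08 for FASN. It was 1.21e-05 for SLC7A5, 0.000143 for TIPARP, 0.000147 for JUN and 0.000546 for ALDH1A3. The values were 0.00220 for FAT1, 0.00553 for FTL and 0.00807 for DDIT4. They were 0.0158 for TXNRD1, 0.0213 for KRT14, 0.0229 for EGR1, 0.0325 for KRT5 and 0.0449 for RMRP.

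Several of these depended on the test. FTL, an iron store, ran from 0.59 in the FGFR1 line to 1.005 in the NRF2 line on the log2 scale, with an adjusted p of 0.312 by edgeR and 0.928 by DESeq2. TXNRD1 ran from 0.48 in the PIK3CA line to 1.123 in the GFP line, with 0.0552 by edgeR and 0.0562 by DESeq2. EGR1, KRT5 and FAT1 also lost the call with edgeR, at adjusted p of 0.0974, 0.216 and 0.120, and KRT14 and RMRP with DESeq2, at 0.128 and 0.476. DDIT4, an inhibitor of mTOR signalling, ran from -0.10 in the HCRED line to 0.44 in the CDKN2A line and lost the call without the CDKN2A line, at 0.150.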

How the results depend on the processing

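The number of genes differing between BaP and NNK was 1200 to 1335 when each library was left out, with 509 to 586 higher with BaP and 675 to 766 higher with NNK, and 934 to 1283 when each genotype was left out. With the 4 lines FGFR1, GFP, HCRED and PIK3CA alone it was 594 (200 higher with BaP, 394 with NNK), a fit with fewer samples. The interaction count was 129 to 457 over single libraries (457 without NRG1-BaP replicate 1, 271 without CDKN2A-NNK replicate 1), 70 with DESeq2, 106 over genes with at least 1 read, 54 without the CDKN2A line and 112 without the HCRED line, and the cause was not tested. Signs were compared where the reported fit or the alternative passed the threshold. They turned, in alternatives that did not pass it, for NRG1 (0.10 with DESeq2, 0.24 without the NRG1 line, 0.44 in the 4 lines named above) and, in those 4 lines, for GSTP1 (-0.0010) and DDIT4 (-0.0549). The replicate block gave 510 genes higher with BaP and 730 higher with NNK, and 477 and 721 with GC content and length correction. Same-numbered BaP and NNK libraries correlated at -0.0563 to 0.106 (median 0.0229, against -0.00917 for different numbers), 1 of 24 above 0.1. The numbers were not taken as pairs because not every pair passed 0.1, although 13 of 24 correlated best with their own number, a hint from the data. Depth limits genes near 3 reads, which stood for 1.83 to 10.4 CPM.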

Other observations

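Genes of glycolysis and the hypoxia response went both ways. VEGFA, ADM, NDRG1 and PFKFB3 were higher with BaP, and PFKFB4, LDHA and ALDOA were higher with NNK. Relative to DMSO, VEGFA, an angiogenic growth factor, stood at 0.56 with BaP and 0.31 with NNK, and NDRG1 at 0.58 and 0.34. ALDOA, a glycolytic aldolase, stood at 0.31 and 0.45. All 20 mitosis genes lay below DMSO with BaP and 18 of 20 with NNK, with median log2 differences of -0.36 and -0.29. With CSC the median was -0.46, so lower levels were not particular to BaP or NNK. Of 14178 tested genes in the same fit, 6913 lay below DMSO with BaP and 7051 with NNK. These differences from DMSO are descriptions from 1 fit of all 95 libraries and share the DMSO samples.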
